A study of Mus musculus with 18 samples.

Results

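The protein-coding genes for proteins of the cytosolic ribosome were examined in the medial prefrontal cortex of mice fed PLX5622, which depletes microglia, and of mice fed a control diet. Members were taken by symbol: Rps or Rpl followed by a number and an optional letter suffix, together with Rplp0, Rplp1, Rplp2 and Rpsa, and without the Rps6k kinases. This gave 82 genes of the 54547 gene identifiers counted, 32 of the small subunit and 50 of the large subunit. Of these, 51 had enough counts to be tested among 11051 tested genes, 19 of the small and 32 of the large subunit.

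The series holds 18 libraries from C57BL6/J mice at postnatal day 100, 9 on control chow and 9 on chow with PLX5622 at 1200 mg/kg. PLX5622 inhibits CSF1R, the receptor on which microglia depend for survival. According to the labels, the chow began 21 days before an every-other-day schedule of 15% ethanol that lasted 44 days, and tissue was taken 24 hours after the last ethanol. The same treatment text stands on the control samples, so it does not establish what each control animal received, and ethanol was part of the description of both groups. Sex, cage and litter are not in the labels. Each library carries its own animal number in its title, 2 to 11 on the control diet and 25 to 35 on PLX5622. What the number stands for is not stated. A second running number in the names of the deposited tables, from 25 to 42, alternates between the diets and rises with the animal number in both, so the order of the animals and the order of the libraries cannot be told apart.

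Ribosomal proteins are made in near equal amounts and assemble in the nucleolus with ribosomal RNA into a small subunit, which decodes messenger RNA, and a large subunit, which joins amino acids. Their messenger RNAs begin with a run of pyrimidines at the start of transcription, the TOP motif, through which the kinase mTOR and the protein Larp1 set their translation together. In the brain these messenger RNAs are found in neuronal cell bodies and processes as well as in glia. Mammalian genomes hold many processed pseudogenes of these genes, which are intronless copies of the spliced messenger RNA.

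Library totals ran from 990136 to 1742680 counts. The 15 tested genes of the microglia list were all called lower on PLX5622 (median log2 fold change -1.77), and the list summed to 616 ± 71 CPM in controls and 199 ± 36 CPM on PLX5622 (SD, n = 9 each). Genes of neurons, the defining cells of the labelled tissue, summed to 9641 ± 226 CPM in controls and 9685 ± 233 CPM on PLX5622, with 12 of 13 tested, none called and Tubb3 at 0 in all libraries. CPM are counts scaled to a common library total over the tested genes, with TMM factors. In such bulk tissue fewer cells of a type and less RNA per cell cannot be told apart.

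Ribosomal protein genes took a small share of the counts, and their pseudogene copies took a share of the same order. The 82 genes held 87540 counts over the 18 libraries, or 0.351% of all counts. Annotated pseudogenes that share at least 50 stretches of 50 bases with the transcript of a member numbered 540 and belonged to 74 members. They held 64963 counts, or 0.260% of all counts, and for 31 of the 82 members the copies held more counts than the gene itself. Rpl37, a small zinc-finger protein of the large subunit, had 1114 counts, while its copy Rpl37rt had 7612. Rpl23, another large-subunit protein, had 1527 counts against 6636 in the pseudogene Gm9794. Rpl24 had 1 count, while its copy Gm12254 had 1332. However, Rpl24 lies along 98.7% of its length within Gm28037 on the same strand. Rpl13, also among the 31, lies along 100% within Gm20388. The counts of these genes are therefore no measure of their expression beside that of the copies.

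The 3 sequences that follow, from coding exons, are shown because a spliced messenger RNA of the gene and a transcript of the copy read the same there. Each is 30 bases of the spliced transcript, with the last 15 bases of exon 2 in lower case and the first 15 bases of exon 3 in capitals, and each stands as 1 unbroken stretch in the copy. Positions are those of GRCm38 with the GENCODE M21 gene models.
Rpl37 and Rpl37rt: agcgcaagaggaagtATAACTGGAGTGCCA
Rpl23 and Gm9794: gtgcagacaacacagGAGCTAAAAACTTGT
Rpl24 and Gm12254: aggaccgacgggaagGTTTTCCAGTTTCTT

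In Rpl37 the bases lie on the plus strand at chr15:5117408-5117422 and chr15:5117619-5117633, parted by an intron of 196 bases, and in Rpl37rt on the minus strand at chr5:115103368-115103397. In Rpl23 they lie on the minus strand at chr11:97781806-97781820 and chr11:97781448-97781462, parted by 343 bases, and in Gm9794 on the minus strand at chr6:66875632-66875661. In Rpl24 they lie on the plus strand at chr16:55966608-55966622 and chr16:55967060-55967074, parted by 437 bases, and in Gm12254 on the minus strand at chr11:58509169-58509198. Bowtie2, the only aligner named in the submitters' processing notes, places a read without splitting it over an intron. How many of the copies' counts came from messenger RNA of the parent genes was not tested.

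Members that were poorly counted shared more of their sequence with other genes. Of the possible 50-base stretches of a member's transcript, a median of 38.3% also occurred in another annotated gene among the 51 tested members, and 72.2% among the 31 members with too few counts. Stretches that lie within 1 exon and occur in no other gene made up a median of 52.0% of the transcript among tested members and 21.3% among the rest. The stretches were counted evenly along the transcript, while the libraries were biased to the 3' end, so many of them may seldom be read. The 31 also include Rpl13 and Rpl24, which lie mostly or wholly within another gene model on their strand. Whether sharing lowered the counts was not tested. Across the 82 members, counts and the shared percentage had a Spearman's rho of -0.44, given as a description since all points come from the same libraries and differ in transcript length. Rpl3l and Rpl39l, paralogues of Rpl3 and Rpl39 best known from muscle and testis, shared no stretch with any other gene and had 7 and 5 counts.

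**Figure D1:**
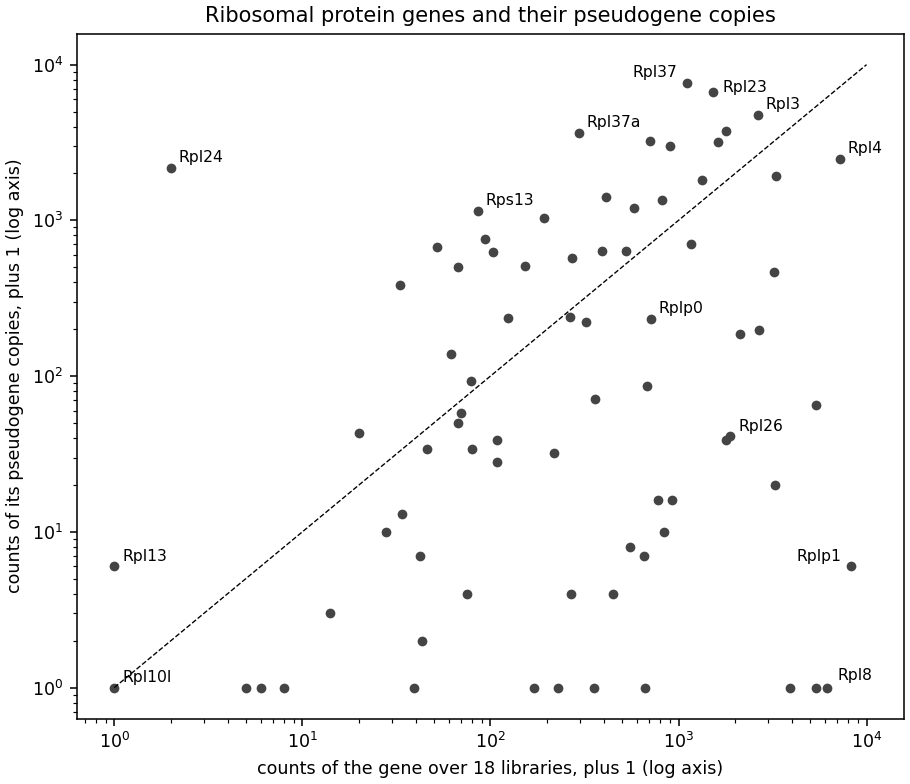
Counts over the 18 libraries of 77 of the 82 ribosomal protein genes (x axis) and of its sequence-matched pseudogene copies (y axis), both plus 1 on log axes, 1 point per gene; the dashed line marks equal counts. The 29 genes above the line include Rpl37, Rpl23, Rpl3, Rpl37a, Rps13 and Rpl24, while Rplp1 and Rpl4 lie far below it.

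The 31 members that could not be tested ran from 0 to 174 counts over all 18 libraries. Of the small subunit these included Rps27rt, Rps27, Rps27a, Rps6, Rps28, Rps7, Rps23, Rps12, Rps13, Rps16, Rps2 and Rps4x, from 4 counts for Rps27rt to 123 for Rps4x. Of the large subunit these were Rpl13, Rpl10l, Rpl24, Rpl39l, Rpl3l, Rpl35, Rpl28, Rpl36a, Rpl10, Rpl27, Rpl18, Rpl10a, Rpl23a, Rpl9, Rpl7a, Rpl7, Rpl17 and Rpl34, from 0 counts for Rpl13 and Rpl10l to 151 for Rpl34. Rps6, the substrate after which the S6 kinases are named, had 27 counts, so its level cannot be compared between the diets here. Rpl13 lies along 100% of its length within Gm20388 on the same strand, and Rpl24 lies along 98.7% within Gm28037. A count of 0 for Rpl13 is therefore no measure of its expression. Rpl36al (92.4%), Rpl13a (88.6%) and Rps10 (76.9%) are likewise overlapped on their own strand and were tested, so their values are uncertain.

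Among the tested members, levels per exonic kilobase spanned a wide range. The median was 17.4 CPM per exonic kilobase. The highest levels were those of Rplp1, an acidic protein of the stalk that recruits elongation factors, at 677 CPM per kilobase, Rps15 at 350, Rpl8 at 185 and Rpl32 at 165. The lowest were those of Rps25 at 2.90 CPM per kilobase, Rpl12 at 3.05, Rpl21 at 3.81 and Rpl6 at 4.68. These are levels in the deposited counts and carry the sharing with copies described above. In libraries biased to the 3' end counts need not scale with length, and dividing by it favours short genes: Rplp1 has 499 exonic bases and Rpl4 2007. Before division by length Rpl4, at 296 CPM in controls, stood above Rps15 at 220 CPM and Rpl32 at 157 CPM, so the order of levels between genes depends on the scale.

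The first comparison set the PLX5622 diet against the control diet. No ribosomal protein gene was called in either direction, and the members' levels overlapped widely between the diets. Summed over the 82 members, control libraries ranged from 3046 CPM (animal 8) through a median of 3727 CPM to 3917 CPM (animal 5). PLX5622 libraries ranged from 3352 CPM (animal 31) through a median of 3516 CPM to 3708 CPM (animal 27). The PLX5622 range lay wholly within the control range. The means were 3593 ± 328 CPM in controls and 3542 ± 143 CPM on PLX5622 (SD, n = 9 each). Small-subunit members summed to 1407 ± 99 CPM and 1388 ± 55 CPM, and large-subunit members to 2186 ± 234 CPM and 2154 ± 115 CPM.

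With edgeR's quasi-likelihood test and Benjamini-Hochberg adjustment over all 11051 genes, 0 of 51 members were called higher and 0 lower at an adjusted p under 0.05. Over all tested genes 0.0452% were called higher and 0.353% lower. At an unadjusted p under 0.05, 0 members were higher and 1 was lower, against 3.57% and 3.22% of all genes. DESeq2 and limma-voom also called 0 members, against 0.0386% and 0.0362% of all genes higher and 0.359% and 0.353% lower. The log2 fold change of PLX5622 over control was positive in 23 members and negative in 28, with a median of -0.02 and a range from -0.44 to 0.30. The median over all tested genes was 0.0001. The median standard error of a member was 0.13, and for 46 of 51 members the 95% interval lay within 1.5-fold in both directions. The intervals of the other 5, Rpl29, Rpl41, Rps25 and Rps27l among them, reached past 1.5-fold in 1 direction, so a change of that size was not excluded for these low-count genes. These 4 are named because their intervals were wide.

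**Figure D2:**
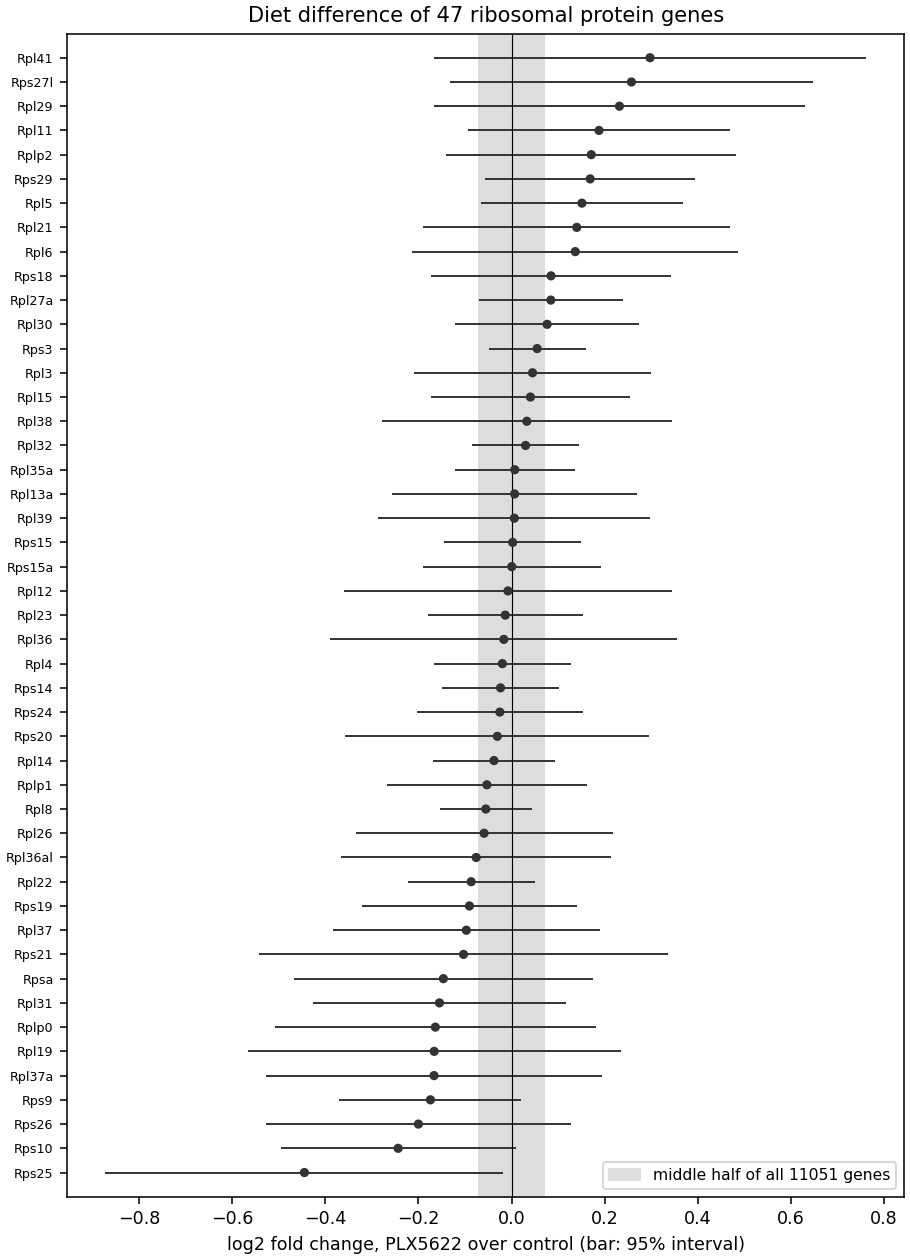
Log2 fold change of PLX5622 over control (x axis) for 47 of the 51 tested ribosomal protein genes, sorted by value, with 95% intervals as bars; the grey band holds the middle 50% of all 11051 tested genes. No gene was called, and only the interval of Rps25, at -0.44, lies wholly on 1 side of 0.

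Of the small subunit, Rps25, which is needed for initiation at certain viral internal entry sites, had the smallest p. Its control libraries ranged from 5.47 through a median of 8.28 to 13.7 CPM. Its PLX5622 libraries ranged from 2.3 through 6.20 to 10.9 CPM. The 2 ranges overlapped, and the lowest value was that of PLX5622 31. The log2 fold change was -0.44 (95% interval -0.87 to -0.02, unadjusted p = 0.0415, edgeR adjusted p = 0.720). Adding the counts of its named copies to Rps25 brought the value to -0.23. Rps25 held 192 counts in all, which limits what this gene can show.

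Other small-subunit members with small p were Rps10 and Rps9, both near the entry of the messenger RNA channel, and Rps29, a zinc-binding protein. Rps10 was at 36.6 ± 9.46 CPM in controls and 30.5 ± 5.47 CPM on PLX5622, a log2 fold change of -0.24 (edgeR adjusted p = 0.752). Rps9 was at 58.3 ± 12.6 and 51.1 ± 7.07 CPM, a log2 fold change of -0.17 (edgeR adjusted p = 0.796). For Rps10 all PLX5622 libraries lay within the control range, and for Rps9 the ranges overlapped. Rps29 was at 34.4 ± 7.44 and 39.1 ± 7.19 CPM, a log2 fold change of 0.17 (edgeR adjusted p = 0.853). Rps27l, a paralogue of Rps27 that p53 induces, was at 8.50 ± 2.10 and 10.3 ± 3.04 CPM, a log2 fold change of 0.26 with an interval from -0.13 to 0.65.

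Better counted genes gave narrower bounds. Of the large subunit, Rplp1, with 8266 counts, was at 344 ± 62.9 CPM in controls and 332 ± 34.0 CPM on PLX5622, with an interval of the log2 fold change from -0.27 to 0.16. Rpl8, beside the catalytic centre, had an interval from -0.15 to 0.04, and Rpl32 from -0.08 to 0.14. Rps15, on the small subunit, was at 220 ± 30.1 and 221 ± 24.6 CPM, with an interval from -0.15 to 0.15. The paralogue pairs inside the rule could not be set side by side, because Rpl3l, Rpl39l, Rpl36a and Rps27 were among the genes with too few counts. Their tested partners Rpl3, Rpl39 and Rpl36al had log2 fold changes of 0.04, 0.01 and -0.08.

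The second comparison followed the members along the animal number, centred within each diet. Taken over both diets, 4 large-subunit members fell with the animal number, and most of the others had slopes of the same sign. Of 51 members, 4 were called lower and 0 higher on a slope shared by both diets (edgeR, adjusted p under 0.05), against 0.154% of all genes lower and 0.163% higher. In all, 17 of the 11051 genes were called lower, 4 of them ribosomal protein genes. At an unadjusted p under 0.05, 22 members had lower and 2 had higher levels along the animal number, against 4.76% and 4.54% of all genes. The slope was negative in 37 members and positive in 14, against 49.8% and 50.2% of all genes. The median slope was -0.025 log2 units per animal number, beside 0.00009 over all genes.

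**Figure D3:**
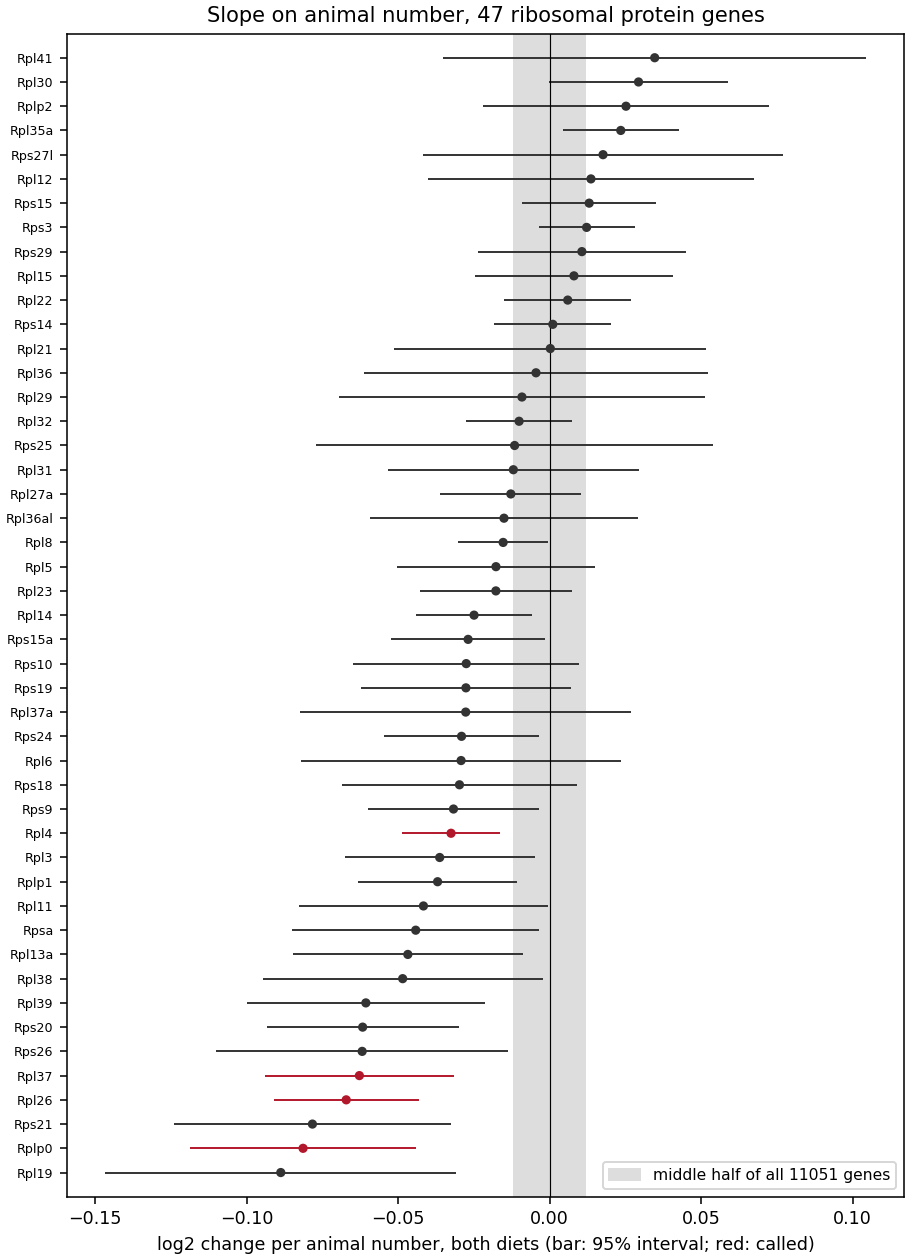
Slope shared by both diets, in log2 units per animal number (x axis), for 47 of the 51 tested ribosomal protein genes, with 95% intervals as bars; red marks the genes called and the grey band holds the middle 50% of all 11051 tested genes. Rpl37, Rpl26, Rplp0 and Rpl4 are red, and 34 of the 47 points lie below 0.

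The 4 genes called on animal number belong to different places in the large subunit. Rpl26 lies near the exit of the peptide tunnel and is known for binding p53 messenger RNA. Rplp0 anchors the stalk that carries Rplp1 and Rplp2. Rpl4 lines the peptide tunnel with a long extension. The role of Rpl37 is given above.

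For Rpl26, control libraries ranged from 54.5 CPM (animal 8) through a median of 79.0 CPM to 100.2 CPM (animal 2). PLX5622 libraries ranged from 57.5 CPM (animal 31) through 75.1 CPM to 100.7 CPM (animal 27). The mean of the 3 lowest animal numbers was 87.7 ± 15.1 CPM and that of the 3 highest 71.0 ± 12 CPM in controls, and 90.6 ± 8.9 and 62.3 ± 2.7 CPM on PLX5622 (SD, n = 3 each). On PLX5622 the 4 lowest numbers all lay above the other 5, while in controls animals 8 and 11 were lowest and animal 4 lay below animal 5. The slope was -0.067 ± 0.012 log2 units per animal number (SE, edgeR adjusted p = 0.00054), at which the level fell by 34.2% over 9 numbers. Rpl26 was called in each of the 18 fits that left out 1 library, with adjusted p from 0.00022 to 0.0056. It was also called with its sequence-matched copies added (slope -0.066). Those copies held 40 counts against 1883 in Rpl26, so the addition could barely move the slope.

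For Rplp0, control libraries ranged from 19.6 CPM (animal 8) through 31.0 CPM to 38.9 CPM (animal 5). PLX5622 libraries ranged from 17.2 CPM (animal 34) through 25.9 CPM to 49.1 CPM (animal 26). Animal 26 stood well above the other PLX5622 libraries. The slope was -0.081 ± 0.019 (edgeR adjusted p = 0.020), at which the level fell by 39.8% over 9 numbers. With the counts of its sequence-matched copies added, Rplp0 had a slope of -0.049 and was not called (edgeR adjusted p = 0.228). Without PLX5622 26 the call was lost, as it was without control 11 and PLX5622 25, 32 or 34, with slopes from -0.095 to -0.066 and adjusted p up to 0.161 over all 18 fits that left out 1 library.

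For Rpl4, control libraries ranged from 224.5 CPM (animal 8) through 298.3 CPM to 343.9 CPM (animal 2). PLX5622 libraries ranged from 260.0 CPM (animal 34) through 299.7 CPM to 320.9 CPM (animal 25). On PLX5622 the 3 highest numbers, at 266.2 ± 8.1 CPM, lay below all others. The slope was -0.033 ± 0.008 (edgeR adjusted p = 0.046), at which the level fell by 18.4% over 9 numbers. With its sequence-matched copies added, Rpl4 had a slope of -0.020 and was not called (edgeR adjusted p = 0.275).

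For Rpl37, control libraries ranged from 23.2 CPM (animal 8) through 49.2 CPM to 67.2 CPM (animal 3). PLX5622 libraries ranged from 33.8 CPM (animal 34) through 44.5 CPM to 49.8 CPM (animal 26). The slope was -0.063 ± 0.016 (edgeR adjusted p = 0.048), at which the level fell by 32.4% over 9 numbers. Its better counted copy Rpl37rt had a slope of -0.010 ± 0.007. With the counts of the named copy added, Rpl37 had a slope of -0.017 (edgeR adjusted p = 0.40).

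**Figure D4:**
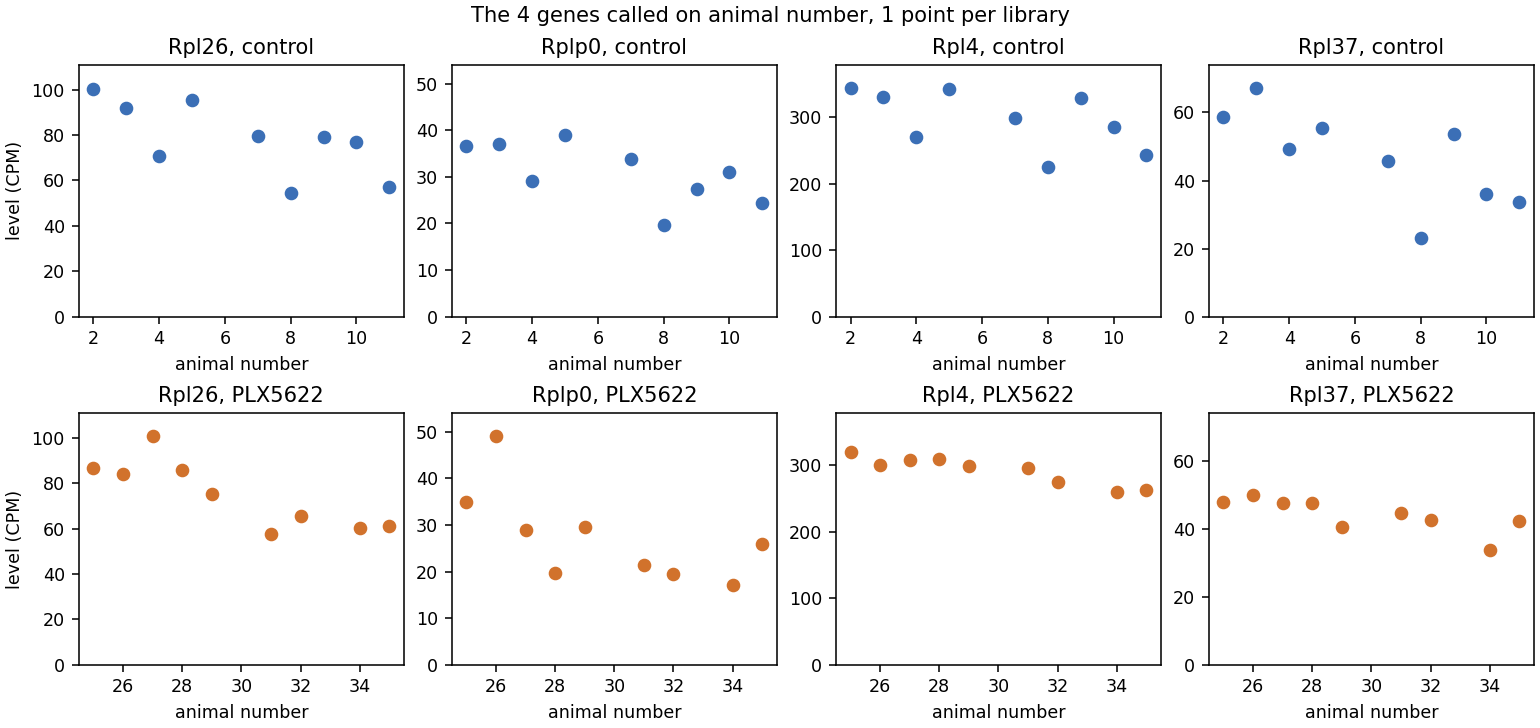
Level in CPM (y axis, linear, from 0) against animal number (x axis) for Rpl26, Rplp0, Rpl4 and Rpl37, with control libraries above and PLX5622 libraries below, 1 point per library. Control 8 is the lowest control in all 4 panels, and on PLX5622 the points for animals 31 to 35 of Rpl26 lie below those for animals 25 to 28.

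The calls other than that of Rpl26 did not hold under all settings. Adding sequence-matched copies, which held 232, 2493 and 7612 counts, took away the calls of Rplp0, Rpl4 and Rpl37. The copies of Rpl26 held only 40 counts, so that fit is no check of its call. In that fit other members were called lower beside Rpl26, and 0.127% of all genes. DESeq2 called only Rpl26, against 0.0686% of all genes called lower in that fit, with adjusted p of 0.113 for Rplp0, 0.146 for Rpl4 and 0.175 for Rpl37. Limma-voom called Rpl26 and Rplp0, against 0.127%. Rpl4 kept its call only without control 4, 8 or 9, with slopes from -0.037 to -0.029 and adjusted p up to 0.193 over the 18 fits that left out 1 library. Rpl37 kept its call only without control 8, control 9 or PLX5622 35, with slopes from -0.074 to -0.055 and adjusted p up to 0.200. Control 8 and control 11 were the lowest libraries in summed members, and of the 51 tested members 23 were lowest among controls in control 8 and 8 in control 11. Control 8 also stood apart when libraries were placed by their differences over genes at large (multidimensional scaling). On the second axis it lay at 0.62, with control 11 next at 0.23. Without control 8 alone 8 members were called lower, against 0.28% of all genes, and without control 11 alone 1, against 0.0542%. Without control 8 and control 11 together, 1 member was called lower, against 0.126% of all genes. The median slope was then -0.012, beside -0.025 with all libraries.

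Next in order of p, and not called, came Rps20 of the small subunit. It ranged from 35.6 CPM (animal 8) through a median of 66.1 CPM to 97.3 CPM (animal 3) in controls and from 47.0 CPM (animal 35) through 68.6 CPM to 83.3 CPM (animal 25) on PLX5622. The lowest control was again animal 8. The slope of Rps20 was -0.062 (edgeR adjusted p = 0.086). Rps20 was called without control 8 (slope -0.056, edgeR adjusted p = 0.0092), control 9 (0.0052) or PLX5622 32 (0.048), and with no filter (0.0011). In the other 15 fits that left out 1 library it was not called, with adjusted p up to 0.281. By subunit, 8 of 19 small and 14 of 32 large members had a negative slope at an unadjusted p under 0.05, against 4.76% of all genes. Of the 2 members with a positive slope at that level Rpl35a had a slope of 0.023, and neither was called.

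Within each diet taken alone no member was called. In controls 0 of 51 members were called lower and 0 higher, against 0.0271% of all genes each way. At an unadjusted p under 0.05, 15 were lower and 2 higher, against 3.79% and 2.72%. Rpl37 had a slope of -0.095 (edgeR adjusted p = 0.086), followed by Rpl26, Rpl39, Rpl4 and Rps20, from 0.286 to 0.506. On PLX5622 0 members were called lower and 0 higher, against 0.00905% and 0.0724% of all genes. At an unadjusted p under 0.05, 8 were lower and 1 higher, against 3.53% and 3.56%. The smallest adjusted p were those of Rpl26 (slope -0.070, edgeR adjusted p = 0.063) and Rplp0 (slope -0.099, edgeR adjusted p = 0.134), followed by Rpl13a, Rps21, Rpl4 and Rps20, from 0.465 to 0.594. DESeq2 and limma-voom called 0 members within either diet. In controls DESeq2 called 0% of all genes in each direction, and limma-voom 0.0181% higher and 0.0271% lower. On PLX5622 they called 0.0124% and 0.0905% of all genes higher and 0% lower. Where 0% of all genes were called, a 0 for the members carries no weight. Leaving out control 9 gave 5 members called lower in controls, where 0.362% of all genes were called lower, and 1 on PLX5622, against 0.0271%.

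In controls the slope was negative in 39 members and positive in 12, against 50.2% and 49.8% of all genes. On PLX5622 it was negative in 36 and positive in 15, against 49.9% and 50.1%. It was negative in both diets in 32 members. The slopes of the 2 diets were tested against each other, and 0 of 51 members differed (edgeR, lowest adjusted p = 0.984), against 0% of all genes. At an unadjusted p under 0.05, 3 members, Rpl29 and Rpl36al among them, had a slope that was more negative in controls and 0 the reverse, against 2.23% and 2.29% of all genes. The difference, PLX5622 minus control, was positive in 31 members and negative in 20, against 50.7% and 49.3%. DESeq2 and limma-voom called 0 differences among the members, and 0% of all genes.

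The summed level of the members along the animal numbers is given as a description, with no test. In controls the 3 lowest numbers averaged 3743 ± 158 CPM and the 3 highest 3472 ± 373 CPM. On PLX5622 these were 3684 ± 28 and 3424 ± 29 CPM (SD, n = 3 each). On PLX5622 every library from animal 31 to 35 lay below every library from animal 25 to 29, whereas in controls animal 9, at 3849 CPM, stood among the high ones. The copies summed to 2688 ± 170 and 2549 ± 171 CPM at the 2 ends in controls, and to 2672 ± 60 and 2626 ± 72 CPM on PLX5622.

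**Figure D5:**
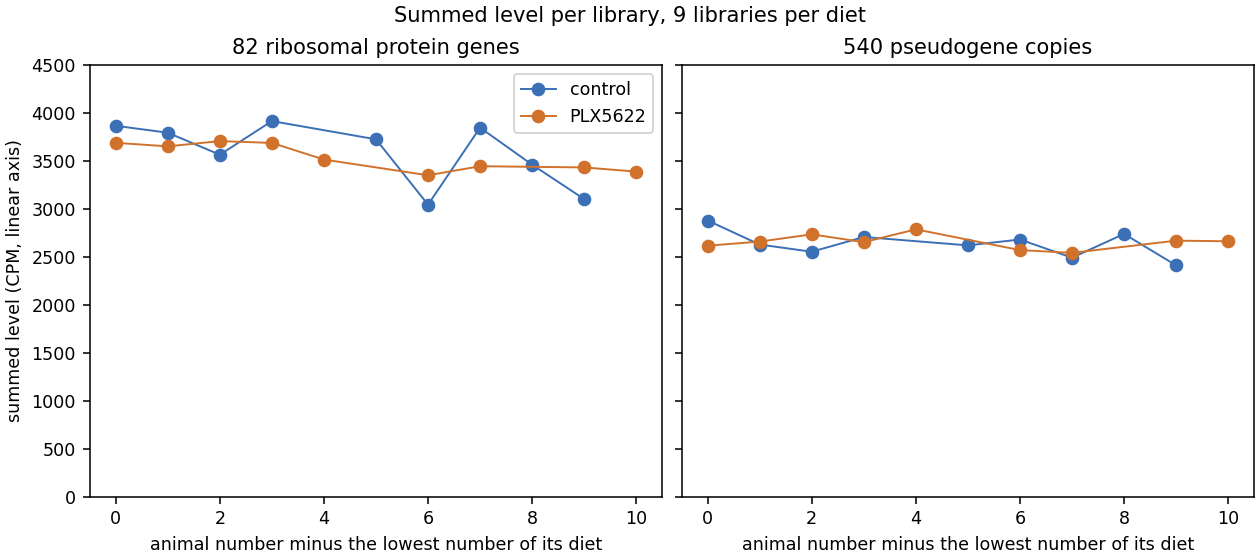
Summed CPM per library (y axis, linear, from 0) of the 82 ribosomal protein genes (left) and of their 540 pseudogene copies (right), against the animal number minus the lowest number of the diet (x axis), 1 point per library. Control 8 and control 11 are the 2 lowest points on the left, and on PLX5622 the members run from 3690 CPM at animal 25 to 3390 CPM at animal 35.

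Among lists of other genes, the immediate-early genes gave calls along the animal number. On the shared slope 0.163% of all genes were called higher and 0.154% lower. At an unadjusted p under 0.05, 4.54% of all genes were higher and 4.76% lower. Of 14 tested immediate-early genes, which neurons switch on within minutes of activity, 7 were called higher on the shared slope (Arc, Fos, Nr4a1, Egr4, Btg2, Dusp1 and Junb) and all 14 had a positive slope. All 22 tested mitochondrially encoded genes had a negative slope, 13 at an unadjusted p under 0.05 and 0 called, with a median of -0.035. Mitochondrial transcripts took 4.86% ± 0.20 of counts at the 3 lowest and 4.42% ± 0.23 at the 3 highest numbers in controls, and 4.66% ± 0.09 and 4.43% ± 0.46 on PLX5622. The 95 tested nuclear-encoded subunits of the respiratory chain gave 0 calls, with 67 negative and 28 positive, and 14 lower and 3 higher at an unadjusted p under 0.05. Genes of mature oligodendrocytes, the myelinating cells, gave 0 calls on the shared slope, with 11 of 12 positive. On PLX5622 alone all 12 were positive, 5 of them at an unadjusted p under 0.05, against 3.56% of all genes. In controls 10 of 12 were negative. Microglia genes gave 0 calls on the slope, with 11 of 15 negative. The part of any of these in the slope of the ribosomal protein genes was not tested.

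The start sites of the 4 genes called on animal number are shown because the TOP motif lies at the start of transcription. Each line gives 30 bases of the genome, 20 before the first transcribed base and 10 from it onward, from RefSeq on GRCm38.p6, with the longest run of C and T that touches the window from 10 bases before to 10 after the start in capitals. All 4 lie on the plus strand, at chr11:68901546-68901575 for Rpl26, chr5:115559447-115559476 for Rplp0, chr9:64173367-64173396 for Rpl4 and chr15:5116593-5116622 for Rpl37.
Rpl26: gagatctcgcggcaaCTTacagaaccggaa
Rplp0: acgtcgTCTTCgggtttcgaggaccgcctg
Rpl4: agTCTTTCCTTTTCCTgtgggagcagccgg
Rpl37: gaagtagTTTCCTgggcggaagcttatcca

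The run had 14 bases in Rpl4, 6 in Rpl37, 5 in Rplp0 and 3 in Rpl26. In all 4 it ended before base 21, the first transcribed base of the RefSeq model, so no marked base lies in the RefSeq transcript. The last base of the run was base 16 in Rpl4, 13 in Rpl37, 11 in Rplp0 and 18 in Rpl26. The GENCODE M21 gene models of Rpl26 and Rpl37 begin further downstream, at chr11:68901583 and chr15:5116645. RefSeq start sites were found for 62 of the 82 members, 74 sites in all. A run of at least 6 bases of C or T was present at 39 of the 74 sites (52.7%) and at 9592 of 32851 sites of all genes (29.2%). The first transcribed base was C at 28.4% of the members' sites and at 16.3% of all sites. A start site in the annotation can lie some bases away from the one used in the tissue, and the run was read only on the coding strand. The run need not include the first transcribed base, so these shares are no count of TOP motifs.

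Genes that share the TOP motif but do not code for ribosomal proteins had mostly negative slopes, none of which was called. Of 18 listed messenger RNAs for elongation factors, initiation factor subunits and others, 16 were tested and 0 were called on the shared slope. Their slope was negative in 13 of 16, with a median of -0.023. At an unadjusted p under 0.05, 6 were lower and 0 higher, against 4.76% and 4.54% of all genes. The lowest p was that of Eef2, which moves the ribosome along the messenger RNA, with a slope of -0.036 (edgeR adjusted p = 0.229). By diet 0 were called, 13 of 16 were negative and the median log2 fold change was -0.09. Pabpc1, which binds the poly(A) tail, was at 62.2 ± 8.21 CPM in controls and 50.9 ± 6.04 CPM on PLX5622, a log2 fold change of -0.29 (edgeR adjusted p = 0.164).

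Ribosomal proteins outside the symbol rule gave 0 calls by diet and on the slope. Of the 5 listed, 4 were tested. Rack1, a scaffold protein on the small subunit, and Rpl22l1 and Rpl7l1, relatives of Rpl22 and Rpl7, had log2 fold changes by diet of -0.06, -0.07 and 0.02, and slopes of 0.001, -0.052 and -0.039. Fau had 88 counts and was not tested. Rps3a1, which the symbol rule leaves out and which was added after its values were seen, had a log2 fold change of 0.13 and a slope of 0.014.

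The supply and control of ribosomes were followed with 4 more lists, none of which gave a call by diet or on the shared slope. Of 34 ribosome biogenesis genes 31 were tested, with 16 positive and 15 negative by diet and a median log2 fold change of 0.006. On the shared slope 14 of them were positive and 17 negative. Ncl, the nucleolar protein nucleolin, had the smallest p by diet, with a log2 fold change of -0.17 (edgeR adjusted p = 0.232). Of 19 genes of the mTOR control of these messenger RNAs 16 were tested, with 11 positive and 5 negative by diet. On the shared slope 12 of these were positive and 4 negative. At an unadjusted p under 0.05, 2 were higher and 0 lower, against 4.54% and 4.76% of all genes. The 30 tested initiation factors had a median log2 fold change of -0.01, and their shared slope was positive in 13 and negative in 17. The 68 tested proteins of the mitochondrial ribosome, a separate particle, had a median slope of -0.001 with 31 positive and 37 negative.

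Among the 540 copies 39 had enough counts to be tested. By diet 0 were called, with 21 positive and 18 negative. On the shared slope 2 were called lower and 0 higher, with 19 positive and 20 negative in all. At an unadjusted p under 0.05, 11 were lower and 4 higher, against 4.76% and 4.54% of all genes. Rps13-ps2, at chr7:88530446-88530898, had a slope of -0.081 ± 0.015 (edgeR adjusted p = 0.00081) and Rps10-ps1, at chr3:95622278-95622772, of -0.068 ± 0.015 (edgeR adjusted p = 0.0085). Rps13-ps2 held 1153 counts and its parent Rps13, which was not tested, held 85. Gm9794 and Gm12254, the copies of Rpl23 and Rpl24 shown above, had slopes of 0.009 and -0.007.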

How the data were processed

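RNA was measured by sequencing biased to the 3' end in 18 libraries. The authors deposited whole-number read counts per gene, 1 table per library, without normalization. Bowtie2 2.3.4.3 and HTSeq 0.11.0 stand in the submitters' processing notes, beside FastQC 0.11.8, R 3.5.1 and DESeq2 1.10.1. What each did, the strand setting and the gene annotation were not given in the sources used here.

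Identifiers were matched to GENCODE M21, and the 927 unmatched hold 0.0467% of counts. Counts were tested in edgeR 4.0.16 (R 4.3.3) after filterByExpr (minimum count 10, minimum total 15), with TMM scaling and a quasi-likelihood fit with robust shrinkage. P-values were adjusted by Benjamini-Hochberg over all tested genes. The slope models hold diet and the animal number centred within its diet. Alternatives used DESeq2 1.42.0, limma 3.58.1 (voom) and sva 3.50.0. No pair of libraries agreed within sampling noise (lowest chi-square per degree of freedom 1.13). On simulated counts for 11051 genes the diet fit recovered 80% of genes changed 1.5-fold (9 false of 170 calls), and the shared slope 48% of genes changed 1.5-fold over 9 numbers (10 false of 144).

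The members and lists were chosen with earlier results of these data known. Named are members called, the 6 with the smallest p in each test other than the difference of slopes, the 4 most and 4 least abundant per exonic kilobase, members that could not be tested, paralogues, and ribosomal proteins outside the symbol rule. Some genes that this rule names are not reported here or drawn in the plots. Copies matched by sequence, the fit without control 8 and control 11, and the diet fits with the running number were added after seeing the data.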

Additional observations from a re-analysis of the deposited data

How the results depend on the processing

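By diet, 0 members were called in each direction under every alternative run. Over those runs 0% to 0.181% of all genes were called higher and 0.139% to 0.448% lower. The median log2 fold change of the members ran from -0.04 to 0.002 when 1 library was left out. It was 0.03 with 1 surrogate variable and -0.09 without control 8 and control 11. The labels do not pair the libraries. Taking the 9 pairs of adjacent running numbers as a replicate block, a fit chosen after seeing the data, called 0 members and gave a median of -0.01, with 0.181% of all genes higher and 0.398% lower. Adjacent libraries correlated from -0.025 to 0.068 in their deviations from the diet means, and 3 of the 9 controls correlated best with their own neighbour. With the running number as a covariate the median was -0.007, again with 0 called.

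On the shared slope, members called lower numbered 4 of 51, with 0.154% of all genes tested in that fit called lower. They numbered 1 of 46 with DESeq2 (0.0686%), 2 of 51 with limma-voom (0.127%) and 2 of 51 with library totals alone (0.0995%). With no filter they were 8 of 80 (0.21%), and with a mean of at least 50 counts 1 of 24 (0.173%). Without control 8 and control 11 they were 1 of 51 (0.126%). The members tested differ between these fits, so the counts are not all over the same genes. Leaving out 1 library gave 1 to 8, with 0.0542% to 0.479% of all genes: 8 without control 8 (0.28%) or control 9 (0.479%), 1 without control 11 or PLX5622 25, 26 or 34, 2 without control 2, 3, 5, 7 or 10 or PLX5622 27, 28, 29, 31 or 32. In controls alone the count of 0 became 2 at an adjusted p under 0.1 (0.0633%), 3 of 80 with no filter (0.0535%) and 1 with either kind of copy added (0.0181%). It was 0 to 5 when 1 library was left out. Of these fits it was 5 without control 9 (0.362%). It was 1 without control 4 (0.0269%), control 8 (0.0361%), PLX5622 29 (0.0358%) or PLX5622 35 (0.0361%). On PLX5622 alone the count of 0 became 1 at an adjusted p under 0.1 (0.0362%), 1 of 80 with no filter (0.0165%) and 1 without control 8 and control 11 (0.036%). It was 0 to 1 when 1 library was left out: 1 without control 8 (0.0361%), control 9 (0.0271%) or PLX5622 35 (0.0181%). The cause was not tested.

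Diet values that were not called changed sign as follows: with sequence-matched copies added, Rps29 -0.0587 and Rpl21 -0.0735; thinned to the smallest library, Rpl12 0.0710 and Rps15 -0.0212; with a surrogate variable, Rplp1 0.0213 and Rps15 -0.0233; with upper quartile scaling, Rps15 -0.00292; with the running number as a covariate, Rps15 -0.00705; with a mean of at least 50 counts, Rps15 -0.000241; without control 8 and control 11, Rpl6 -0.0457, Rpl32 -0.0170, Rpl3 -0.0701 and Rpl39 -0.115. When 1 library was left out, Rpl12 ran from -0.0689 to 0.0539, Rps15 from -0.0290 to 0.0520, Rpl3 from -0.0286 to 0.0940, Rpl36al from -0.138 to 0.00304 and Rpl39 from -0.0639 to 0.104.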
